A study of Mus musculus with 16 samples.

Results

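The regions described here are the peaks of histone H3 lysine 27 trimethylation (H3K27me3) on mouse chromosome 8 in CCN6KOT cells, a breast tumour line labelled spindle metaplastic that lacks CCN6, a secreted matrix protein also called WISP3. All cells in both groups therefore carried the CCN6 knockout and had been selected with puromycin after lentiviral transduction. The tested cells received dnTCF4, a dominant negative form of TCF4, the DNA-binding partner of beta-catenin, and the control cells received the vector named PPGS (the series' design text calls the comparison cells parental). Each group had 4 H3K27me3 libraries, made by ChIPmentation, a protocol that cuts and tags immunoprecipitated chromatin on the beads with a transposase. Nothing in the labels says whether the libraries of a group came from separate cultures, so the spread between them may be technical, and the age of the source animals is not stated. The 8 matching IgG libraries were not analysed here. Every peak listed on chromosome 8 was taken, which gave 6270 of 106385 peaks over the 8 libraries, and overlapping peaks were merged into 3768 of 61441 regions. Chromosome 8 was selected on its share of peaks in the dnTCF4 and control libraries, so that share is described without a test.

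H3K27me3 is written by EZH2, the catalytic subunit of Polycomb repressive complex 2, and is known as a mark of silent genes, above all developmental regulators. It often lies in broad domains, and at CpG-rich promoters it can coexist with activating marks. The study asks how blocking beta-catenin/TCF output bears on the mark that EZH2 writes in these tumour cells.

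The libraries stood far apart in list length before any comparison. The dnTCF4 libraries 1 to 4 held 21492, 191, 4885 and 1838 peaks over all chromosomes, and control libraries 1 to 4 held 426, 738, 54070 and 22745. On chromosome 8 there were 894, 5, 145 and 65 peaks in the dnTCF4 libraries, against 29, 47, 3417 and 1668 in the controls. The ranges overlapped, and most of the peaks came from control 3, control 4 and dnTCF4 1. Read counts are not part of these lists, so sequencing depth is unknown, and a missing peak does not show that the mark was missing. Statements on regions and genes below rest mainly on those 3 libraries.

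The promoters below show what sequence lay under the few peaks that reached a gene start, and what sequence did not. They run from 250 bases before to 50 after a start in the RefSeq annotation of the same mouse build (GRCm38.p6), read 5′ to 3′ on the gene's strand, with each CG dinucleotide in capitals. The motif searched was CG, which reads the same on both strands, and at least 1 CG occurred in 97.8% of the 870 chromosome 8 promoters and in 95.4% of promoters elsewhere. The first 6 sequences are all the chromosome 8 promoters that a peak overlapped in 2 libraries, and no promoter was overlapped in more.
AF366264, chr8:13838516-13838815, minus strand: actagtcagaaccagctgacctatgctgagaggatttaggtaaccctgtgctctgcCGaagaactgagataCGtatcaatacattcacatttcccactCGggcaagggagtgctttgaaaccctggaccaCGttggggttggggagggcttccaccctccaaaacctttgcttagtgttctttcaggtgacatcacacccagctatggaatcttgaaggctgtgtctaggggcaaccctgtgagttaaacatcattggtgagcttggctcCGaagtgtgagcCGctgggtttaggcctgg
Apela, chr8:65037287-65037586, minus strand: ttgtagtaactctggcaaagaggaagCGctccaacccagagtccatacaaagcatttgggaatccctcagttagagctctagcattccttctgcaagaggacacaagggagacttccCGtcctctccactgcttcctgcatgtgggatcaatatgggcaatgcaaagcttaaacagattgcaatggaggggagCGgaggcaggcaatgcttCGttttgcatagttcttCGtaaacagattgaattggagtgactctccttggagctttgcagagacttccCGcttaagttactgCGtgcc
Pkd1l2, chr8:117082400-117082699, minus strand: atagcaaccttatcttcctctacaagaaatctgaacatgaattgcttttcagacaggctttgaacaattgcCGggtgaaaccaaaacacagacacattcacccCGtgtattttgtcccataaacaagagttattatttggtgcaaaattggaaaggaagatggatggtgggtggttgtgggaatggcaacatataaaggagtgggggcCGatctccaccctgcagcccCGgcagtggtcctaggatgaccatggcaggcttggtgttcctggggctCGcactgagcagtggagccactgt
Rtbdn, chr8:84946741-84947040, plus strand: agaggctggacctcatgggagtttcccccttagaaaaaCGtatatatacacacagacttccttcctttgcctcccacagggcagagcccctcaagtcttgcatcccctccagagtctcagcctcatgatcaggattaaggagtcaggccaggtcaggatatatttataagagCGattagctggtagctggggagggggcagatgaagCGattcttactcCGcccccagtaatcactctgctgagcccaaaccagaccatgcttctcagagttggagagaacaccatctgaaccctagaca
Scoc, chr8:83458347-83458646, minus strand: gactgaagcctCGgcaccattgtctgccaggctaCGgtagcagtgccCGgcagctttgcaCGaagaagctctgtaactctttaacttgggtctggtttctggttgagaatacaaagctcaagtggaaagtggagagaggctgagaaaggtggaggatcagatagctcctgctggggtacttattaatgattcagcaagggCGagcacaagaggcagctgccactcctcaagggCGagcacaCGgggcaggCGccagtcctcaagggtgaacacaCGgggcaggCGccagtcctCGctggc
Sorbs2, chr8:45661743-45662042, plus strand: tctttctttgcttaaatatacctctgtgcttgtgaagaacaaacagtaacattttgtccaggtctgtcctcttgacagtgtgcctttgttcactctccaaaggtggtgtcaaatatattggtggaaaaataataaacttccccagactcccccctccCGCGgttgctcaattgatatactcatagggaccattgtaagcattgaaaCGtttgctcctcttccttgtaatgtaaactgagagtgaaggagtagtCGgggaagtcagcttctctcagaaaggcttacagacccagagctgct
Hand2, chr8:57320733-57321032, plus strand: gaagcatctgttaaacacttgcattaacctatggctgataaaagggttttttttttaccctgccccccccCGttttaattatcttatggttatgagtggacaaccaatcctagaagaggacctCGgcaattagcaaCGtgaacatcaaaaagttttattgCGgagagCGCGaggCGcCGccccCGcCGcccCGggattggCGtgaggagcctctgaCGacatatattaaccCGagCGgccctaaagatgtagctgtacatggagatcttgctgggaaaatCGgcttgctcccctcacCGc
Sox1, chr8:12395269-12395568, plus strand: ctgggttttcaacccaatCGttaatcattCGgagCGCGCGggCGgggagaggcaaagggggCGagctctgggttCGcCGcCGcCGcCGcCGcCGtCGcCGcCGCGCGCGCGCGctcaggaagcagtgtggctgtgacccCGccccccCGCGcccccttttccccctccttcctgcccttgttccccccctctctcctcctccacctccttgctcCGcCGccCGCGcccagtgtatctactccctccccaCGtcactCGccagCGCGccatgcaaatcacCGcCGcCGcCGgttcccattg
Helt, chr8:46294622-46294921, minus strand: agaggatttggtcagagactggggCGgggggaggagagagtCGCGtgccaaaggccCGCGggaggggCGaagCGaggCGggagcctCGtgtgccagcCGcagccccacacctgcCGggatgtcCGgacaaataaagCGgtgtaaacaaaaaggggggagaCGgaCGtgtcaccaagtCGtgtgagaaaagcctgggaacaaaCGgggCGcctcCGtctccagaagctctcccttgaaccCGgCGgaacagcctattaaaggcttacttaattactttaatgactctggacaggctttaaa

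These first promoters held 6 (AF366264), 7 (Apela), 5 (Pkd1l2), 4 (Rtbdn), 11 (Scoc) and 4 (Sorbs2) CG dinucleotides in 300 bases. Apela encodes a peptide ligand of the apelin receptor, Pkd1l2 a polycystin family member, Rtbdn a riboflavin-binding protein of the retina, Scoc a short coiled-coil protein and Sorbs2 an adaptor of the actin cytoskeleton. The last 3 sequences belong to developmental transcription factors, the classical Polycomb targets, and are shown because none had a peak over it in any library. Of the 870 promoters, 14 (1.61%) had a peak in any library, so lacking one is not particular to these 3. Hand2, a regulator of heart and limb formation, had 17 CG dinucleotides, Sox1, a factor of neural progenitors, had 37, and Helt, a repressor active in midbrain neurons, had 21. Among other promoters without a peak, Retn had 2 CG dinucleotides, Tmem255b 6, Ucp1 15 and Mast1 23. The Scoc promoter was the only chromosome 8 promoter overlapped by a peak in a dnTCF4 library (dnTCF4 1), where control 3 also had a peak. The other 5 promoters were each overlapped by a peak in control 3 and control 4.

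Chromosome 8 held a smaller share of the peaks in dnTCF4 cells than in control cells. It took 4.16%, 2.62%, 2.97% and 3.54% of the peaks in dnTCF4 libraries 1 to 4, against 6.81%, 6.37%, 6.32% and 7.33% in control libraries 1 to 4. The dnTCF4 libraries were all below the controls, with means of 3.32% ± 0.675 and 6.71% ± 0.472 (SD, n = 4 each) and a ratio of 0.495. For scale, chromosome 8 holds 4.91% of the annotated length and 4.82% of the protein-coding genes, so every dnTCF4 library lay under these values and every control library over them. Chromosome 8 was the only chromosome of 20 with a lower share in every dnTCF4 library (5% of chromosomes), and 1 other chromosome had a higher one (5%). By covered length the groups met at their edges. The share was 3.352%, 0.924%, 2.11% and 2.45% in dnTCF4 cells, against 3.349%, 5.02%, 6.62% and 7.04% in control cells, with dnTCF4 1 and control 1 almost level.

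The same order held when the lists were cut to equal length by their q values. Among the 191 strongest peaks of each library, 9, 5, 9 and 8 lay on chromosome 8 in dnTCF4 libraries 1 to 4, against 11, 17, 20 and 19 in control libraries 1 to 4. Again no dnTCF4 library reached a control, although dnTCF4 1 and dnTCF4 3 came within 2 peaks of control 1. Among the 1838 strongest peaks, which 5 libraries could supply, 92, 65 and 65 lay there in dnTCF4 1, 3 and 4, against 133 and 149 in control 3 and control 4. The cuts come from the lists on which the chromosome was chosen, so they too only describe its share.

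**Figure D1:**
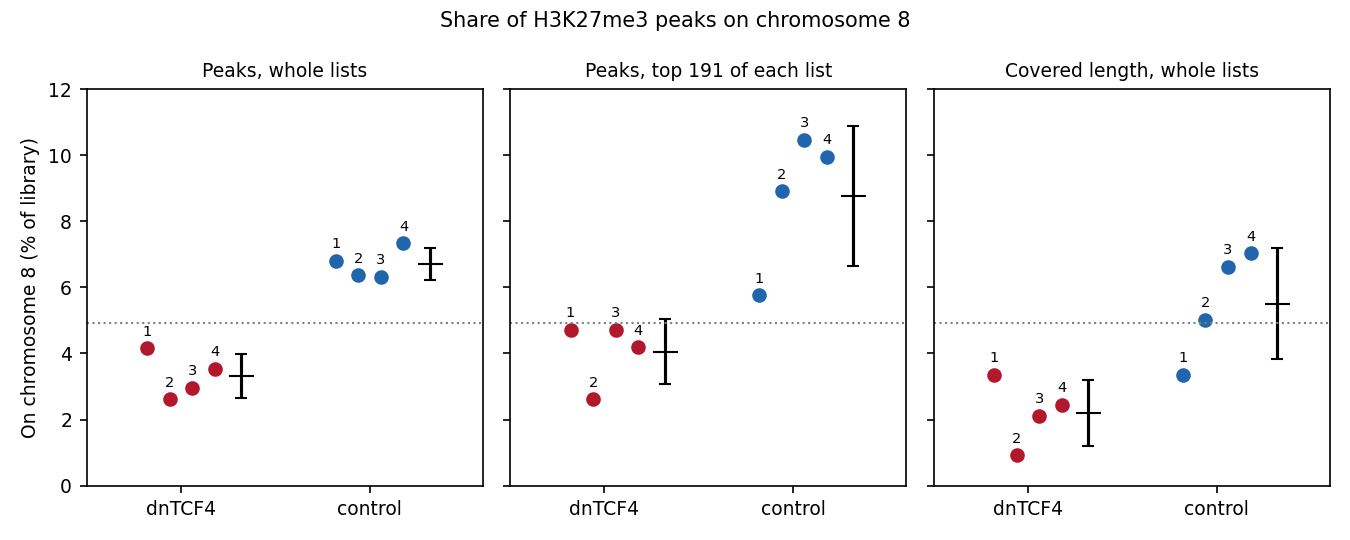
Percent of each library's H3K27me3 peaks (left, whole lists; middle, the 191 strongest peaks) and of its covered length (right) that lay on chromosome 8, in dnTCF4 and control libraries. Points are libraries with their numbers, bars are the mean and SD of 4, and the dotted line is the share of annotated length, 4.91%. The groups separate in the left and middle panels, and in the right panel dnTCF4 1 (3.352%) and control 1 (3.349%) are level.

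The closest match in list length was dnTCF4 1 with control 4, whose whole lists had a ratio of 0.945. On chromosome 8 their ratio was 0.536, from 894 peaks in dnTCF4 1 and 1668 in control 4. The shortfall was spread along the chromosome: dnTCF4 1 had fewer peaks in all 13 segments of 10 Mb, with ratios between 0.294 and 0.681. Control 4 overlapped 63.2% of the chromosome 8 peaks of dnTCF4 1 and 49.6% of its peaks elsewhere, while dnTCF4 1 overlapped 32.7% of the chromosome 8 peaks of control 4 and 49.3% elsewhere. Most chromosome 8 peaks of dnTCF4 1 were thus ones that control 4 also had. Control 3, the longest list, overlapped 89.5% of the chromosome 8 peaks of dnTCF4 1 and 78.6% of its other peaks. These are values of single libraries and carry no replicate test.

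Across all libraries, the mean share of all peaks was lower in dnTCF4 cells in 12 of the 13 segments. In 3 segments the groups did not overlap, with dnTCF4 lower in each, and these 3 are the only such segments among 269 in the genome (1.12%). None of the 13 was higher without overlap in dnTCF4 cells, where 1.86% of segments in the genome were. The 3 segments began at 10000001, 20000001 and 110000001. They hold beta-defensin genes, the Adam3 and Adam18 sperm protein genes, and the region around Cdh13. In the segment from 20000001, there were 121, 0, 11 and 4 peaks in dnTCF4 libraries 1 to 4 and 3, 7, 402 and 204 in the control libraries. In the segment from 110000001 the counts were 81, 1, 13 and 6 in dnTCF4 and 3, 5, 348 and 163 in control libraries. For the short lists the separation thus rests on very few peaks. Because the chromosome was chosen for its share, the segments describe where the difference lay and add no separate evidence for it.

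The marked regions were unevenly placed, and the densest stretch was chr8:83000001-85000000, which was picked after the values were seen. It held 128, 2, 51 and 17 peaks in dnTCF4 libraries 1 to 4, against 12, 12, 170 and 140 in the control libraries. It made up 22.1%, 45.4%, 42.0% and 32.5% of the covered length of chromosome 8 in dnTCF4 cells, against 46.3%, 29.3%, 9.21% and 14.6% in control cells. The shares overlapped, and the smallest belonged to control 3 and control 4, the libraries with the longest lists. Of 54 protein-coding genes wholly inside it, 8 had a marked end (14.8%, against 16.5% of all chromosome 8 genes), among them Clgn, Mgat4d, Scoc and Ucp1. Peaks there were wider than on the rest of the chromosome in each library, with medians of 685.5, 271, 423 and 337 bp in dnTCF4 cells, where the rest had 415.5, 197, 303 and 245.5 bp. In control cells the medians were 255.5, 410, 1210 and 806.5 bp inside it and 218, 314, 615 and 452 bp outside.

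As a share of all peaks, the interval did not separate the groups. It took 0.596%, 1.05%, 1.04% and 0.925% of all peaks in dnTCF4 cells, against 2.82%, 1.63%, 0.314% and 0.616% in control cells. The remainder of chromosome 8 did separate them, at 3.56%, 1.57%, 1.92% and 2.61% in dnTCF4 cells against 3.99%, 4.74%, 6.01% and 6.72% in control cells. The chromosome was chosen on its share and the interval after its values were seen, so this separation adds no separate evidence. Among the 65 strongest chromosome 8 peaks, the interval held 12, 20 and 17 in dnTCF4 1, 3 and 4, against 9 and 5 in control 3 and control 4. In the lists cut to this number these 3 dnTCF4 libraries thus had more peaks there than control 3 or control 4, with 18.5%, 30.8% and 26.2% of the 65. The cut is the whole chromosome 8 list of dnTCF4 4, and dnTCF4 2, control 1 and control 2 were too short for it. In the whole chromosome 8 lists of dnTCF4 2, control 1 and control 2 the interval held 40%, 41.4% and 25.5% of peaks.

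**Figure D2:**
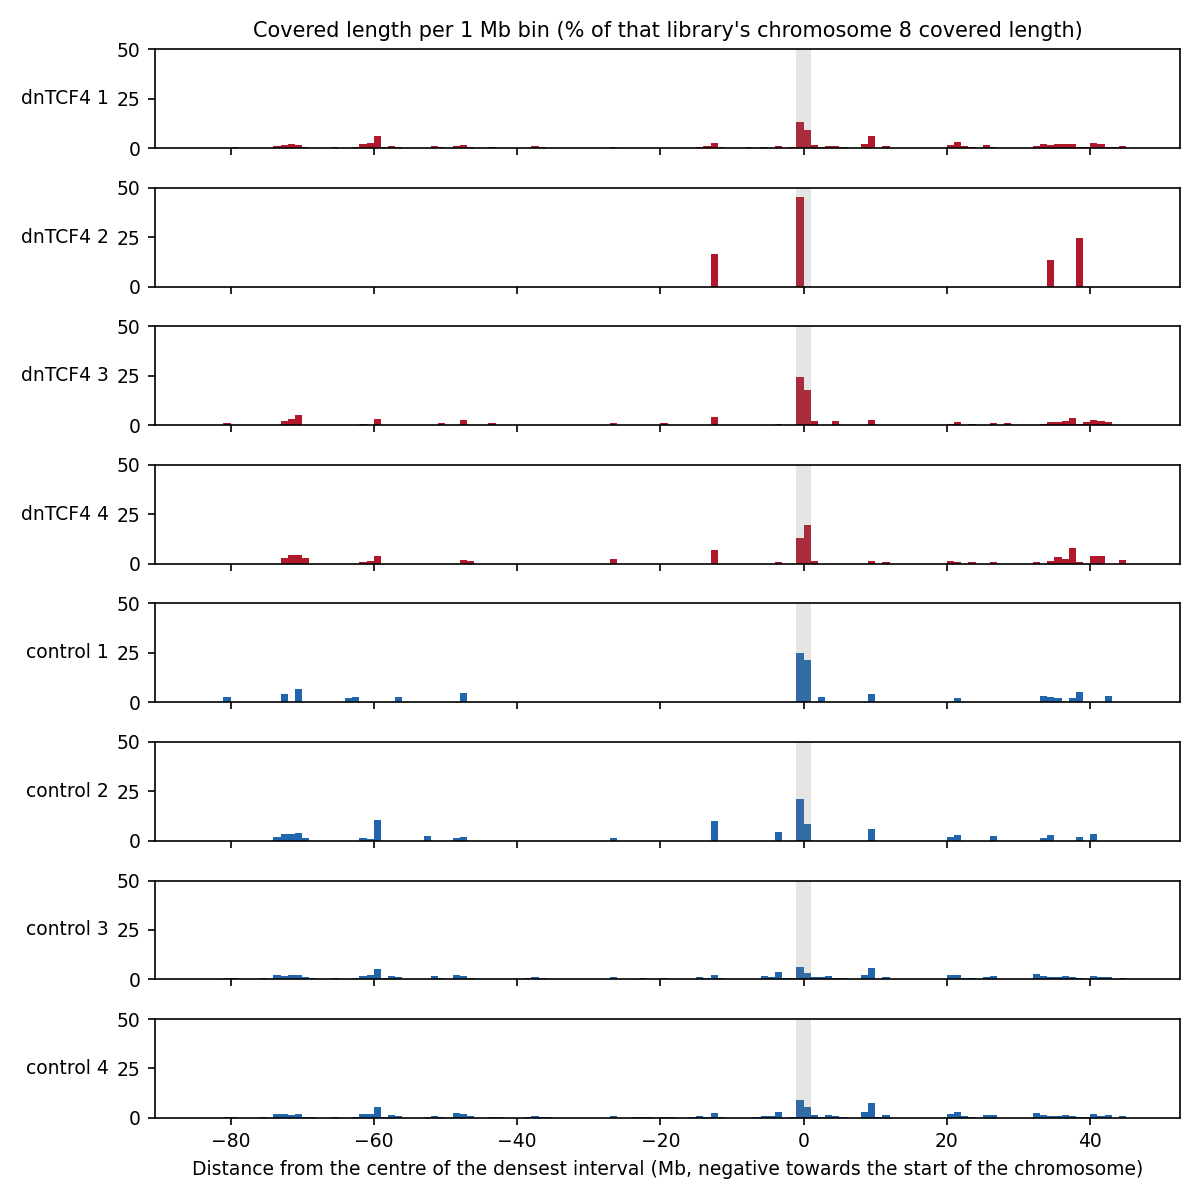
Percent of each library's chromosome 8 covered length in each 1 Mb bin, against distance in Mb from the centre of the densest interval (grey band), with dnTCF4 libraries above control libraries. The band holds 22.1% to 45.4% of covered length in dnTCF4 cells and 9.21% to 46.3% in control cells, and dnTCF4 2 shows 4 bars because it has 5 peaks.

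The mean position of covered length was 76.0, 95.8, 77.9 and 78.7 Mb in dnTCF4 libraries 1 to 4 and 75.3, 67.1, 69.9 and 72.5 Mb in control libraries 1 to 4. All dnTCF4 values were higher, but the lowest (dnTCF4 1) exceeded the highest control (control 1) by little. The difference of 10.9 Mb had p = 0.0286 in a two-sided exact permutation test, the smallest that 70 assignments can give, and an adjusted p = 0.114 over the 8 tests made here, so it was not called. The value from dnTCF4 2 rests on 5 peaks, and without that library the difference was 6.33 Mb. In the lists cut to 1838 peaks it turned round, to -1.19 Mb.

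A single region carried a peak in all 8 libraries, at chr8:122703257-122705814, 3.925 kb from Cbfa2t3, which encodes a transcriptional corepressor of the ETO family. Peaks covered 1013, 293, 391 and 207 bp of it in dnTCF4 libraries 1 to 4 and 426, 367, 2387 and 1394 bp in control libraries 1 to 4. It was the top chromosome 8 peak by q value in dnTCF4 1, dnTCF4 2, dnTCF4 3 and control 1. A further 6 regions had a peak in 7 libraries. They overlapped or neighboured Clgn (chr8:83385480-83395648), Gm5373 (chr8:71833668-71835708), Ndufb7 (chr8:83560435-83564387), Lrrc36 (chr8:105425391-105427630), Cdh13 (chr8:118262352-118264703) and Tmem255b (chr8:13433670-13435022). Clgn encodes calmegin, a chaperone of testis, Ndufb7 a subunit of respiratory complex I, and Cdh13 the membrane-anchored T-cadherin. In the Clgn region peaks covered 4124, 542, 2118 and 994 bp in dnTCF4 cells, against 0, 968, 10130 and 6240 bp in control cells. It was widest in control 3 and control 4, was present in the shortest list (dnTCF4 2) and had no peak in control 1.

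Most regions were seen less often. Of the 3768 regions, 2402 had a peak in 1 library, and 2041 of these were in control 3. The regions covered 3837 kb, or 2.97% of the chromosome up to its last annotated gene end, with a median width of 620 bp. The widest, chr8:84521917-84532902, spanned 10986 bp in Cacna1a, the gene of a neuronal calcium channel, where peaks covered 3944, 0, 499 and 158 bp in dnTCF4 libraries 1 to 4 and 0, 0, 10147 and 8427 bp in control libraries 1 to 4. Adam18, which encodes a sperm surface protein, held chr8:24625510-24635507, where peaks covered 4282, 0, 0 and 0 bp in dnTCF4 cells and 0, 859, 9998 and 6012 bp in control cells. In both regions control 3 and control 4 were highest.

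Of the chromosome 8 regions, 643 (17.1%) had a peak in at least 2 control and 0 dnTCF4 libraries, against 9.84% of regions over all chromosomes. The opposite pattern held for 4 regions (0.106%), against 0.216% over all chromosomes. The chromosome was chosen for its share of peaks in the 2 groups, so both counts describe it and add no separate evidence. Of the 643, 634 were shared by exactly control 3 and control 4, so the count rests on these libraries: it was 6 without control 3, 7 without control 4 and 1026 without dnTCF4 1. In lists cut to 1838 peaks it was 18, and the opposite count was 16. Only dnTCF4 1, 3 and 4 and control 3 and 4 supply those lists. The rule is thus not equally easy to meet in both directions, and 18 and 16 cannot be compared directly. Only 4 regions had a peak in 3 control and 0 dnTCF4 libraries. They lay at chr8:27291582-27293233, 15.926 kb from the translation repressor gene Eif4ebp1, at chr8:83796078-83797662, at chr8:105417443-105418297 in Lrrc36, and at chr8:3658527-3659159 in Retn. In the Retn region peaks covered 0 bp in each dnTCF4 library, against 218, 0, 318 and 633 bp in the controls. On the other side, chr8:125731860-125732942 in Ntpcr, a nucleoside triphosphatase gene, had 930 bp under a peak in dnTCF4 1 and 726 bp in dnTCF4 3, with 0 bp in the other libraries. A second such region in Cacna1a (chr8:84445229-84446055) had 827 bp in dnTCF4 1 and 276 bp in dnTCF4 3. In Dlgap2, a gene of the postsynaptic density, chr8:14141650-14142633 had 234, 0, 196 and 215 bp in dnTCF4 cells and 984 bp in control 3 alone among the controls.

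The widest peaks were found in the libraries with the longest lists. Median widths were 437, 229, 328 and 251 bp in dnTCF4 libraries 1 to 4, against 221, 335, 627 and 474 bp in control libraries 1 to 4, and the groups overlapped. The difference of mean log10 median width was -0.107 (two-sided exact permutation p = 0.429, adjusted p = 0.686). Peaks of at least 5 kb numbered 0 in each dnTCF4 library, against 0, 0, 52 and 3 in control libraries 1 to 4, and the widest peak was 10202 bp long in control 3. Set against the rest of the genome within each library, chromosome 8 peaks were narrower in 5 of 8 libraries, among them all 4 dnTCF4 libraries, where the other chromosomes had medians of 488, 328.5, 403 and 310 bp. The mean difference was -0.06 log10 units, and a two-sided exact sign-flip permutation test gave p = 0.0625 and an adjusted p = 0.167.

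**Figure D3:**
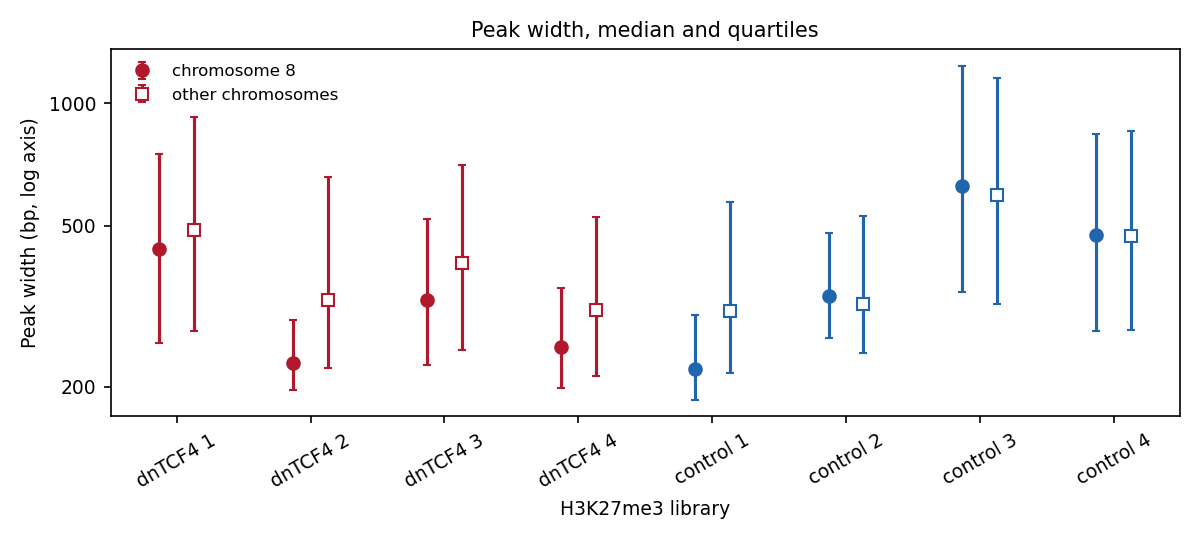
Width of H3K27me3 peaks in each library on a log axis, for chromosome 8 (filled circles) and the other chromosomes (open squares). Points are medians over peaks and bars run between the quartiles. The highest chromosome 8 median was 627 bp in control 3, and the 4 dnTCF4 medians each lie under the value of the other chromosomes in the same library.

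The peaks on chromosome 8 were also compared with the rest by the authors' fold enrichment, the ratio of signal to background that the peak caller gives each peak. Its median was 3.52, 5.39, 4.13 and 4.72 on chromosome 8 in dnTCF4 libraries 1 to 4, where other chromosomes had 3.49, 4.71, 4.05 and 4.47. In control libraries 1 to 4 it was 4.50, 4.73, 3.03 and 3.41 on chromosome 8 and 4.49, 4.58, 3.01 and 3.39 elsewhere. Chromosome 8 was higher in 8 of 8 libraries, by a mean of 0.05 on the log2 scale (SD of the differences 0.06), with p = 0.0078 in the two-sided exact sign-flip permutation test and an adjusted p = 0.0625, so the small difference was not called.

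Peaks inside protein-coding genes made up 35.5%, 60.0%, 40.7% and 38.5% of chromosome 8 peaks in dnTCF4 cells and 48.3%, 42.6%, 32.9% and 34.3% in control cells (difference 4.15 points, exact permutation p = 0.629, adjusted p = 0.838). Peaks within 2 kb of a gene's first or last base made up 10.96%, 40%, 9.66% and 7.69% in dnTCF4 cells and 13.8%, 12.8%, 8.02% and 8.39% in control cells (difference 6.33 points, exact permutation p = 0.8, adjusted p = 0.914). The highest value in each comparison was dnTCF4 2, from 3 and 2 of its 5 peaks, and without it both differences turned round, to -1.30 and -1.31 points. Within libraries, chromosome 8 minus the other chromosomes was 5.996 points for peaks inside genes (exact sign-flip permutation p = 0.109, adjusted p = 0.219) and 1.204 points for peaks near gene ends (exact p = 0.977, adjusted p = 0.977). Of the 3768 regions, 1277 (33.9%) touched a protein-coding gene, and 555 lay over 100 kb from any. Most of the 3768 regions thus lay outside the annotated protein-coding genes. Control 3 alone gave 2041 of the 3768, and the share of the chromosome inside genes was not set beside this count.

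A gene was counted as marked when a peak overlapped the 2 kb on either side of its first or last annotated base. Bases under peaks were summed over these end windows, so bases shared by both windows of a short gene count in each. Of the 1043 protein-coding genes on chromosome 8, dnTCF4 libraries 1 to 4 marked 79, 1, 14 and 4 and control libraries 1 to 4 marked 4, 5, 169 and 91. In any library 172 were marked (16.5%), against 15.8% of genes on other chromosomes. In each group, 2 or more libraries marked 13 genes (1.25%), against 2.51% over all chromosomes. A further 32 genes (3.07%) were marked by 2 or more control libraries and by 0 dnTCF4 libraries, against 1.42% over all chromosomes, and 0 genes showed the opposite pattern, where the genome had 0.0601%. As the chromosome was chosen for its share of peaks, these gene counts add no separate evidence for a difference. Of the 32, 31 rested on exactly control 3 and control 4. Their number was 1 without control 3, 1 without control 4, 77 without dnTCF4 1 and 2 in lists cut to 1838 peaks.

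Clgn was marked in 7 libraries, with 2639, 542, 937 and 994 bp under peaks at its ends in dnTCF4 libraries 1 to 4, against 0, 968, 4001 and 3129 bp in control libraries 1 to 4. Tmem255b, which encodes a transmembrane protein, was also marked in 7, with 1710, 0, 728 and 680 bp in dnTCF4 cells and 547, 423, 2625 and 1013 bp in control cells. Trmt9b, a relative of tRNA methyltransferases, had 2023, 0, 1185 and 199 bp in dnTCF4 cells and 0, 355, 2363 and 1414 bp in control cells. These 3 genes carried peaks in most libraries of both groups, and control 3 had the most covered bases at each. Ces1c, Olfr370, an olfactory receptor gene, and 1700018B08Rik followed with 5 libraries each. Mgat4d, a glycosyltransferase-like gene of testis, had peaks over much of its body, 25.9%, 0%, 6.17% and 1.45% of it in dnTCF4 cells against 0%, 3.19%, 71.4% and 44.5% in control cells.

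Among genes marked in control libraries alone, Retn, which encodes the hormone resistin, had 0 bp in each dnTCF4 library, against 218, 0, 1213 and 964 bp in control libraries 1 to 4. Control 1 and control 4 marked Retn only at its far end, and control 3 at both ends. The next by covered bases were Ces3a, 1700016D06Rik, Zfp612, Tex24, Palld, Cmtm2a, Defa24, Cpne7 and Kcng4, each marked at its ends in control 3 and control 4 only. Defa24 is a short gene with overlapping end windows, so its summed count, and with it its place in this order, is inflated. Inside the gene bodies, peaks of dnTCF4 1 covered 8.16% of 1700016D06Rik and 1.99% of Ces3a, against 38.97% and 34.82% in control 3. Palld, the gene of the actin-bundling protein palladin, had 2432 bp in control 3 and 801 bp in control 4. Kcng4, a modulatory potassium channel subunit gene, had 2219 bp in control 3 and 578 bp in control 4. By the summed count, control 3 exceeded control 4 at each of these genes.

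**Figure D4:**
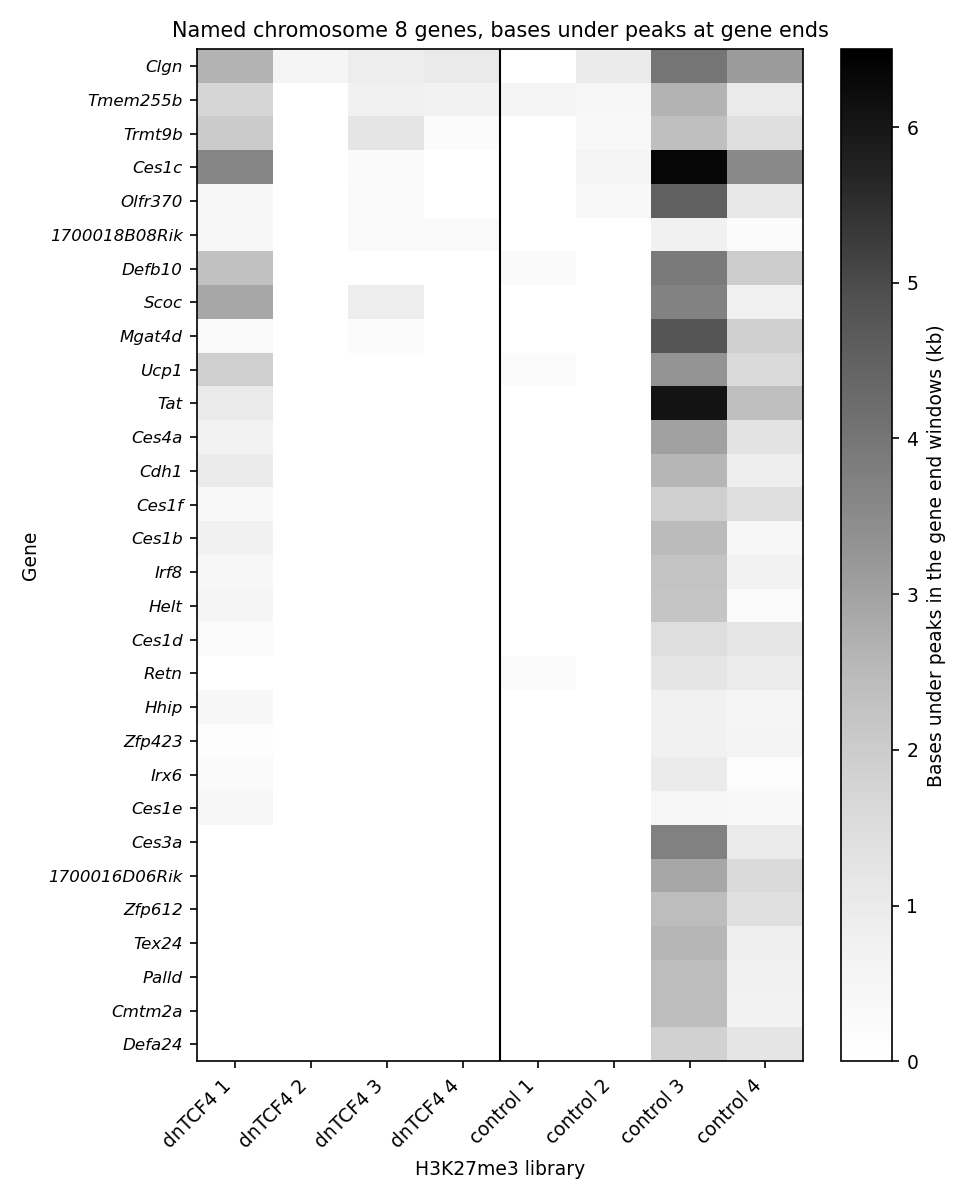
Bases (kb) under H3K27me3 peaks within 2 kb of the ends of 30 named chromosome 8 genes, ordered by the number of libraries that marked them, with dnTCF4 libraries left of control libraries. Where the end windows of a short gene overlap, as at Olfr370, Defb10 and Defa24, shared bases count in each window. The darkest cells are Ces1c (6341 bp) and Tat (6051 bp) in control 3, and the lowest 7 genes are white in every dnTCF4 library.

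Carboxylesterases, enzymes that cleave esters of drugs and lipids, had the most marked members among the 12 gene lists examined. Of 19 genes, 11 were marked in any library, 6, 0, 1 and 0 in dnTCF4 libraries 1 to 4 and 0, 1, 11 and 10 in control libraries 1 to 4. Ces1c, whose product circulates in mouse plasma, had 3617, 0, 279 and 0 bp in dnTCF4 cells and 0, 518, 6341 and 3531 bp in control cells. Ces4a had 666 bp in dnTCF4 1, against 3000 bp in control 3 and 1245 bp in control 4. The family lies in a few clusters, so neighbouring members can share a peak and are not separate observations, and near-identical copies may share reads. Defensins, the antimicrobial peptides of gut and epithelia, had 8 of 53 members marked in any library, close to the 16.5% of all chromosome 8 genes. In Defb10, peaks covered 53.6%, 0%, 0% and 0% of the gene body in dnTCF4 cells and 7.10%, 0%, 82.6% and 44.0% in control cells.

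Of 18 developmental transcription factors, 4 had a marked end (22.2%, against 16.5% of all chromosome 8 genes). Helt had 537 bp in dnTCF4 1, against 2197 bp in control 3 and 227 bp in control 4, all at the far end of the gene and none at its start. Zfp423, a zinc finger regulator of neural and fat cell development, had 98 bp in dnTCF4 1, against 757 bp in control 3 and 587 bp in control 4. Irx6, an Iroquois factor, had 240 bp in dnTCF4 1, against 968 bp in control 3 and 174 bp in control 4. Pou4f2, a factor of retinal ganglion cells, had 314 bp in control 3 alone, at the far end of the gene. The other 14 factors, Sox1 and Hand2 among them, had no peak at an end.

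Of 18 signalling genes, 3 were marked (16.7%, against 16.5% of all chromosome 8 genes). Hhip, an inhibitor of Hedgehog ligands, had 435 bp in dnTCF4 1, against 724 bp in control 3 and 541 bp in control 4. Vegfc, a ligand of lymphatic growth, and Nkd1, an inhibitor of Wnt signalling, were marked in control 3 alone, with 577 and 308 bp. Sfrp1, a secreted Wnt antagonist, had 0 bp in all 8 libraries.

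Cdh1, the gene of the epithelial adhesion protein E-cadherin, had 989, 0, 0 and 0 bp in dnTCF4 libraries 1 to 4, against 0, 0, 2566 and 871 bp in control libraries 1 to 4. It was 1 of 3 marked genes among 10 cadherin and adhesion genes, with Cdh3 (P-cadherin) and Cdh13. Over all chromosome 8 genes, 16.5% were marked, and these lists are small. Among 7 epithelial genes, 3 were marked, Cdh1, Cdh3 and Marveld3, a tight junction gene with 564 bp in dnTCF4 1, against 528 bp in control 3. Cdh1 thus had a peak in the 3 libraries that listed the most peaks on chromosome 8.

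Matrix and mesenchymal genes were marked in 3 of 10 cases (Palld, Mmp15 and Crispld2), immune genes in 3 of 16 (Irf8, Retn and Plcg2) and neuronal genes in 5 of 22. Irf8, a transcription factor of myeloid cells, had 444 bp in dnTCF4 1, against 2236 bp in control 3 and 704 bp in control 4. Liver and metabolic genes were marked in 5 of 14 cases, among them Ucp1, the uncoupling protein of brown fat, and Tat, which breaks down tyrosine. Ucp1 had 1892, 0, 0 and 0 bp in dnTCF4 cells and 193, 0, 3302 and 1589 bp in control cells, and Tat had 1030, 0, 0 and 0 bp in dnTCF4 cells and 0, 0, 6051 and 2373 bp in control cells. None of 14 housekeeping genes and none of 4 metallothionein genes had a peak at an end in any library. Marked members ranged from 0 to 11 a list, beside 172 of 1043 over the chromosome.

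Peaks tended to flank gene starts rather than cover them. Around the 870 start sites of 725 chromosome 8 genes whose strand is given, dnTCF4 1 had a peak in 0.517% of the 500 bp bins within 0.5 kb and in 1.10% of those from 5 to 10 kb away. The values were 2.24% and 4.78% in control 3 and 0.920% and 2.09% in control 4. Other chromosomes showed the same dip, at 1.12% and 2.02% in dnTCF4 1 and at 2.34% and 4.54% in control 3. The 300 base promoters were overlapped by a peak in 1, 0, 0 and 0 cases in dnTCF4 libraries 1 to 4 and 0, 0, 14 and 5 in control libraries 1 to 4. That was 0.115% of chromosome 8 promoters in dnTCF4 1, where other chromosomes had 0.743%. In control 3 the share was 1.61% on chromosome 8 and 1.67% elsewhere, and in control 4 it was 0.575% and 0.550%, so the control shares were close to those of the other chromosomes. In control 3 those 14 held a median of 4.5 CG dinucleotides, against 16 in the others. None of the 56 annotated miRNA genes of the chromosome lay under a peak, where the regions together covered 2.97% of the chromosome, so the count of 0 shows nothing particular to them.

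**Figure D5:**
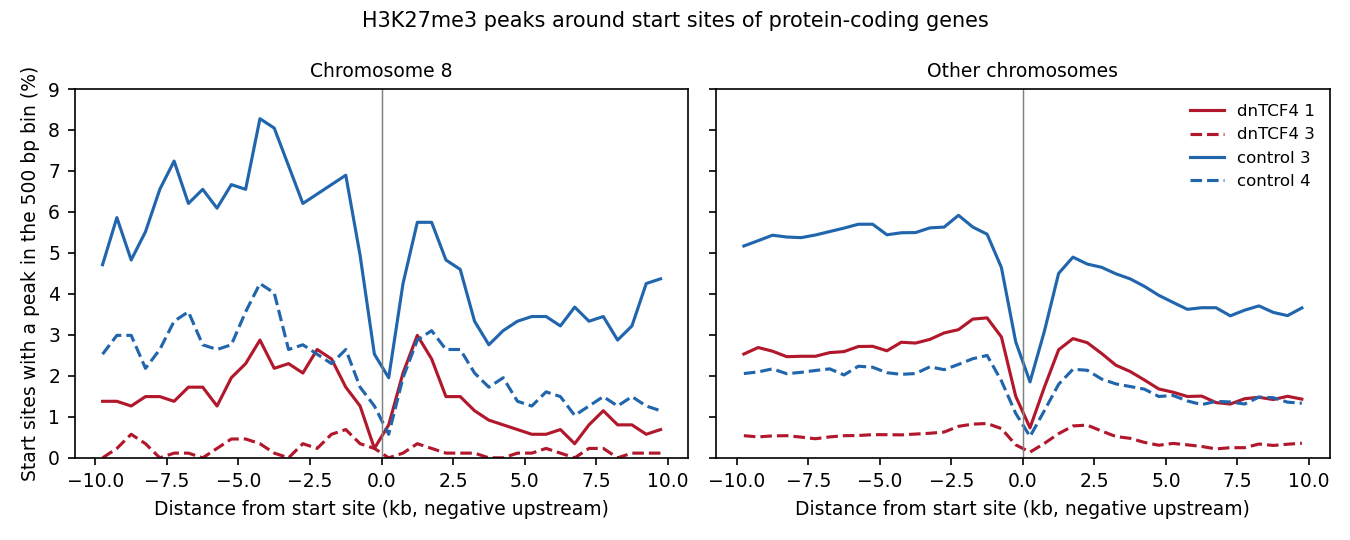
Percent of start sites with an H3K27me3 peak in each 500 bp bin against distance from the start (kb, negative upstream), on chromosome 8 (left) and other chromosomes (right), in 2 dnTCF4 and 2 control libraries. On chromosome 8 the bins within 0.5 kb average 0.517% in dnTCF4 1 and 2.24% in control 3, below the 1.10% and 4.78% of bins 5 to 10 kb away.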

How the data were processed

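H3K27me3 was profiled by ChIPmentation in 4 dnTCF4 and 4 control libraries. The submitters' processing notes name MACS2 2.1.2, bedtools 2.28.0, SAMtools 1.2, Picard 2.20.2, Bowtie2 2.3.4.1, cutadapt and Trim Galore, and build mm10, without options; whether IgG served the peak caller as its control is not known here. The deposited lists have 9 columns, and each list's peaks are named for its own library, so calling was done library by library. The deposited score, fold enrichment (a ratio), −log10 p and −log10 q are the authors' values per peak and served to describe or rank peaks within a list. The lowest deposited −log10 q was 1.01.

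Peaks sharing at least 1 base were merged. Genes, promoters and strand came from RefSeq tables of GRCm38.p6, and 725 of 1043 chromosome 8 genes matched a promoter. Values per library were compared with two-sided exact permutation tests (70 assignments between groups, 256 sign flips within libraries), adjusted by the Benjamini-Hochberg method over 8 tests and called at an adjusted p under 0.05 (Python 3.11.15, scipy 1.17.1). The code was tested on simulated data. Members, gene lists and named genes were chosen with earlier results of these data known. Named are genes marked in the most libraries, those with the largest difference in each direction, up to 6 per list, and Cdh1, Retn, Clgn and Sfrp1; promoters shown, the densest interval and regions or genes beside these were chosen after their values were seen. Alternatives were stricter q values, equal lists, other windows and overlaps, left-out libraries, a replicate block and, chosen after seeing the data, leaving out the densest interval.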

Additional observations from a re-analysis of the deposited data

Results flagged for a closer look

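In 18 combinations of group and measure, 4 had a library far from the other 3 of its group by Dixon's criterion for groups of 4, and chance alone flags about 1 in 20. In the dnTCF4 group, dnTCF4 1 held 894 chromosome 8 peaks covering 557 kb, far above the other dnTCF4 libraries. The mean position of 95.8 Mb and the share of 40% of peaks near a gene end in dnTCF4 2 were far above the other dnTCF4 libraries, and both rest on 5 peaks.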

How the results depend on the processing

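The mean share of peaks on chromosome 8 was lower in dnTCF4 libraries under each alternative tried. The chromosome was chosen for this share in these lists, so its persistence is a description and adds no separate evidence. The difference was -3.39 percentage points in the full lists, -2.57 at a −log10 q of at least 2, -4.71 in lists cut to 191 peaks and -3.67 to -3.15 with each library left out. No alternative produced a called test.

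Differences turned round as follows. With each library left out, dnTCF4 minus control ranged from -1.31 to 9.46 points near gene ends and from -1.30 to 7.07 inside genes, and chromosome 8 minus other chromosomes from -2.57 to 2.26 near gene ends; the lowest value of each was without dnTCF4 2. That last difference was -1.92 at the stricter q, -5.92 in lists cut to 1838 peaks and -4.14 without the densest interval, where the group difference near gene ends was -4.06. In lists cut to 1838 peaks the group differences were -2.32 points inside genes and -1.19 Mb in position. The causes were not tested.

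Regions in at least 2 control and 0 dnTCF4 libraries (643) ranged from 6 to 1026 with 1 library left out, and numbered 84 at the stricter q, 18 in lists cut to 1838 peaks, 2 in lists cut to 191 and 410 where 50% of a region had to be covered. The opposite regions (4) ranged from 0 to 19 and numbered 16 and 2 in the cut lists, 2 with peaks merged within 1 kb and 2 without the densest interval. In lists cut to 1838 peaks, more dnTCF4 than control libraries remained, so counts of opposite direction cannot be compared directly there. Control-only genes (32) ranged from 1 to 77, with 8 at the stricter q, 2 and 1 in the cut lists and 3 with 50% of a window covered. Genes in both groups (13) ranged from 4 to 13, with 4, 2 and 1 in those settings, 0 with 50% covered, 6 with windows of 1 kb and 8 without the interval. Genes marked in dnTCF4 alone (0) numbered 1 in either cut list.

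No pairing by replicate number was seen. Over 13 segments the deviations of libraries with equal numbers correlated at -0.575, -0.149, -0.504 and -0.304, and no library correlated best with its own number. With 5 chromosome 8 peaks in dnTCF4 2 and 29 in control 1, such counts are too small to exclude pairing. With the numbers as a replicate block the differences were the same (-0.107, 6.33, 4.15 and 10.9), the smallest p possible was 0.125, and no test was called with or without it. Limits are that dnTCF4 2 has 5 peaks on the chromosome and that depth is unknown.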
